A study of Mus musculus with 6 samples.

Results

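The 7 genes followed here serve mineral formation and the response to parathyroid hormone: Alpl, Phex, Mepe, Dmp1, Ibsp, Ank and the hormone's receptor Pth1r. They were taken by symbol from the annotation of the array, each had 1 probe, and all 7 of 7 were measured, out of 8588 genes tested. Total RNA was taken from 2T3 cells, mouse pre-osteoblasts kept as a line, in OptiCells, a closed type of culture cassette. Of the 6 samples, 3 were static controls and 3 were exposed to simulated microgravity on a Random Positioning Machine, which turns a culture through changing directions, with 1 array per sample. The labels name no genotype, treatment or medium beyond this. Nothing given states how long the exposure lasted or whether a group's samples were separate cultures, so each p-value reflects spread that could be technical.

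Mineral forms in bone when osteoblasts raise local phosphate and remove pyrophosphate, which blocks crystal growth. Alpl, the tissue-nonspecific alkaline phosphatase, splits pyrophosphate outside the cell, and Ank supplies it by exporting pyrophosphate or its precursor from the cell. Ibsp (bone sialoprotein), Dmp1 (dentin matrix protein) and Mepe (matrix extracellular phosphoglycoprotein) are acidic secreted proteins of the SIBLING family that bind mineral. Phex is a membrane endopeptidase, mostly of late osteoblasts and osteocytes, whose loss causes phosphate wasting. Pth1r is a G protein-coupled receptor for parathyroid hormone and the related peptide, and in osteoblasts it raises cyclic AMP.

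Of the 7 genes, 2 fell in simulated microgravity, Pth1r and Alpl, and 5 did not pass the test. The test was limma on log2 intensity relative to each array's median, with Benjamini-Hochberg adjustment over all 10146 probes and a threshold of 0.05. Over all genes, 0.198% were called lower. At an unadjusted p under 0.05 the same 2 of 7 passed, against 11.5% of all genes. The other 5 genes had log2 changes between -0.18 and 0.19, near the median of all genes (0.05). The -0.18 was that of Dmp1, for which 5 of 6 values lay under a floor at which low values were set equal. Without that floor its log2 change was -0.97, so its change was not well measured. Both calls were lost when any 1 array was left out and, with all 6 arrays, when the replicate number was fitted as a block. Each gene passed in 11 of the 19 alternative settings run, and both were lower in all 19.

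The sequence before each start is shown because Alpl and Pth1r fell together and can be set beside members that did not pass. Given here are the 250 bases before each RefSeq transcription start (build GRCm38.p6), 5′ to 3′ on the gene's strand. The capitals mark exact matches, on either strand, to 4 motifs: TGTGGT (the core bound by RUNX factors), TGACG (a cyclic AMP response half-site), TATAAA (the TATA box) and GGGCGG (the GC box). Of the members that did not pass, Ibsp and Mepe are shown. They do not represent the others, and the windows of Ank, Phex and Dmp1 are described below.
Alpl, start 1 (chr4:137796385-137796634, minus strand): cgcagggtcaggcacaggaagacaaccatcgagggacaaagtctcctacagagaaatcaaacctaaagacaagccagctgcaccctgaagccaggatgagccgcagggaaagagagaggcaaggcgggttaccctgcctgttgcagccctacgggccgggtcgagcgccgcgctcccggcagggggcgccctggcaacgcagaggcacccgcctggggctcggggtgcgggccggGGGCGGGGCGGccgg
Alpl, start 2 (chr4:137766476-137766725, minus strand): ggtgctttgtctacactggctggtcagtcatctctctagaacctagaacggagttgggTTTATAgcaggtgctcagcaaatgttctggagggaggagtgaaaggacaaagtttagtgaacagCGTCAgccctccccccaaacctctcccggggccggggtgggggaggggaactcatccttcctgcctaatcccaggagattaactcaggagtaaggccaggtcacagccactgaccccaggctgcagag
Pth1r, start 1 (chr9:110747146-110747395, minus strand): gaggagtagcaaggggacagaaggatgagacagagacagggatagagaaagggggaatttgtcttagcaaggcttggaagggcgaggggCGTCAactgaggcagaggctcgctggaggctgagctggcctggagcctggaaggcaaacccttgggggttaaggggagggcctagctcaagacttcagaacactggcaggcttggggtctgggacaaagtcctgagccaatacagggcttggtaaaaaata
Pth1r, start 2 (chr9:110743687-110743936, minus strand): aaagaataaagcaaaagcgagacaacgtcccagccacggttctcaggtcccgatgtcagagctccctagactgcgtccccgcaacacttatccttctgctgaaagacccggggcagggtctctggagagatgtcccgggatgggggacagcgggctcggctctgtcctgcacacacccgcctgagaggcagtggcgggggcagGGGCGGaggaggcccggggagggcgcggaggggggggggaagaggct
Pth1r, start 3 (chr9:110742611-110742860, minus strand): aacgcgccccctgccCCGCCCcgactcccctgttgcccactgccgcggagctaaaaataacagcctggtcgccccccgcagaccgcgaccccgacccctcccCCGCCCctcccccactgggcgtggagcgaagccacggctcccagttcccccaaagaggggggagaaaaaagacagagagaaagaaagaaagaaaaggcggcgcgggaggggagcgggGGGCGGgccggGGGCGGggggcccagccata
Ibsp (chr5:104299037-104299286, plus strand): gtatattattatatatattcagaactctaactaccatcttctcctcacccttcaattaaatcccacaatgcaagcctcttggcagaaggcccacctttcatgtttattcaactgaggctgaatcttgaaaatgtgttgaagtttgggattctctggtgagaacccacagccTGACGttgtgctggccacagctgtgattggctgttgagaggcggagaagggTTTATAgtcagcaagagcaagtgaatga
Mepe (chr5:104325079-104325328, plus strand): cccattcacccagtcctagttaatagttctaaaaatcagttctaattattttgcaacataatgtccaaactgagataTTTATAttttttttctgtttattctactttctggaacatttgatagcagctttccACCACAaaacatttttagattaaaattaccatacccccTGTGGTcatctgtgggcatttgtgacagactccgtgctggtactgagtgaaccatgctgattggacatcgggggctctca

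The Alpl and Pth1r windows held no RUNX core (0 of 5 windows), a motif found in 14.0% of the 32851 windows in the RefSeq table. The core was also absent from the windows of Phex, Ibsp, Ank and Dmp1 start 1, members that did not pass. Mepe held it on each strand, 80 and 118 bases before the start, counted to the base of the match farthest from the start, and Dmp1 start 2 held it 164 bases before the start. A cyclic AMP half-site, present in 17.8% of windows, stood 128 bases before Alpl start 2, 161 before Pth1r start 1 and 79 before the Ibsp start. The same half-site was in the Phex window, 20 bases before its start. GC boxes, present in 32.7% of windows, were in front of Alpl start 1 and Pth1r starts 2 and 3, and also in the window of Ank, which did not pass, 82 and 86 bases before its start. The 2 matches of Alpl start 1 share a base, and those of Ank overlap. In the Ibsp window a TATA box (12.4% of windows) lay on the other strand, 28 bases before the start, the inverted form known for this gene. Matches to it on that strand also stood 192 bases before Alpl start 2 and 173 before the Mepe start. The share of G or C was 56% to 68.4% in the Alpl windows and 56% to 70.4% in the Pth1r windows, against a median of 52.4% over all windows. Among the members that did not pass it was 81.2% for Ank, above both, and 38% to 46% for Mepe, Phex, Ibsp and Dmp1. These matches describe letters only, and which start the 2T3 cells use was not measured.

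Dmp1, Ibsp and Mepe lie side by side on chromosome 5, in a run of SIBLING genes that begins with Dspp and ends with Spp1. Of these 5 neighbouring protein-coding genes, 3 had a probe with their single symbol, and Dspp and Spp1 were not analysed here. The 3 measured neighbours did not pass the test.

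Pth1r, the hormone receptor, had intensities of 5.77, 5.27 and 4.96 times the array median on static 1, 2 and 3. On microgravity 1, 2 and 3 it had 0.967, 1.06 and 1.15. The groups lay far apart, with every microgravity array near the median of its array and every static array well above it. The group values were 5.33 ± 0.408 (SD, n = 3) and 1.06 ± 0.0892 (SD, n = 3). The receptor's signal was thus 5.05-fold lower, with a 95% interval of 3.90 to 6.53-fold (log2 change -2.34, SE 0.16, limma adjusted p = 0.0194). Among genes it had the 4th largest log2 decrease. Its spread was small in each group, with coefficients of variation of 7.65% and 8.43%, against a median of 21.2% over genes in static and 21.1% in microgravity samples.

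Alpl, the phosphatase that removes pyrophosphate, had 2.43, 2.70 and 3.42 times the array median on static 1, 2 and 3. On microgravity 1, 2 and 3 it had 0.592, 0.687 and 0.518. The lowest static array was above the highest microgravity array, and the gene went from above the array median to below it. The group values were 2.85 ± 0.513 (SD, n = 3) and 0.599 ± 0.0847 (SD, n = 3). The decrease was 4.74-fold, with a 95% interval of 3.31 to 6.81-fold (log2 change -2.25, SE 0.22, limma adjusted p = 0.0295). It was the 7th largest log2 decrease among genes.

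**Figure D1:**
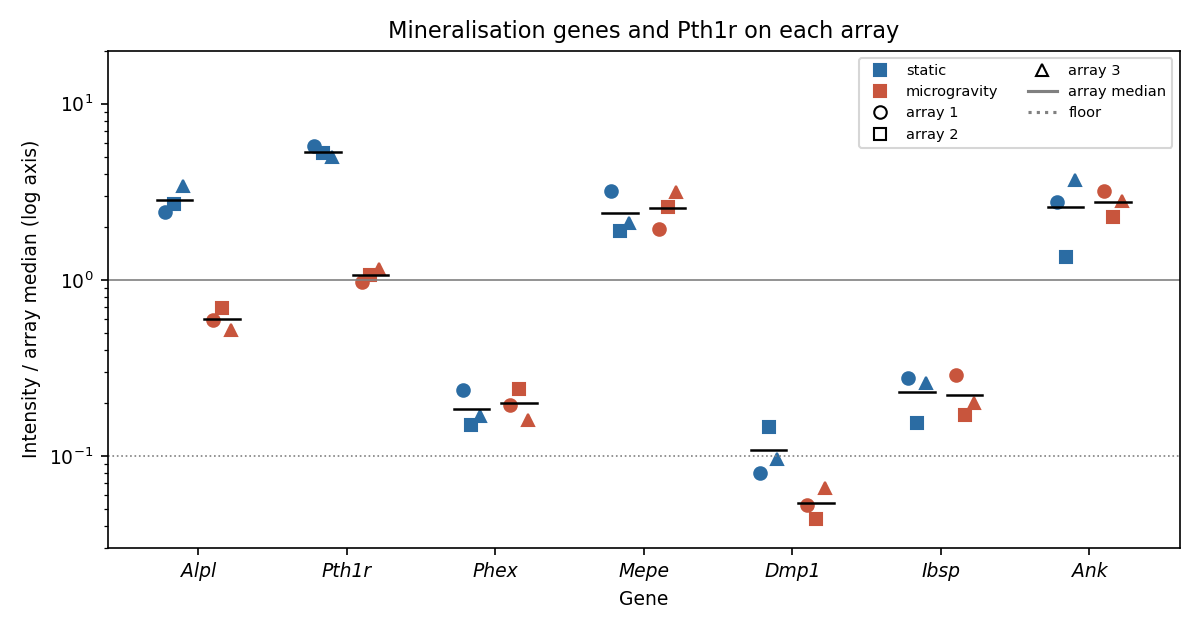
Intensity of each gene relative to the array median (log axis) on 3 static and 3 microgravity arrays; points are arrays, black bars are group means, and lines mark the array median and the floor at 0.1 of it. Only Pth1r, Alpl and, at the floor, Dmp1 have groups that do not overlap.

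With static 1, 2 or 3 or microgravity 1, 2 or 3 left out, the limma adjusted p of Pth1r was 0.0992 to 0.205 and that of Alpl 0.127 to 0.205. The log2 changes then stayed at -2.39 to -2.27 for Pth1r and at -2.35 to -2.11 for Alpl. For a single gene, an exact permutation test of 3 against 3 arrays cannot give a 2-sided p below 0.1. Static 2 and microgravity 2 stood apart from the other arrays in their dim values, with 9.16% and 6.44% of values at the floor against 17.1% to 19.8% elsewhere. Without these 2 arrays, Pth1r and Alpl had log2 changes of -2.34 and -2.38 (limma adjusted p = 0.307 and 0.312). In bulk RNA, fewer cells of a type and less RNA per cell cannot be told apart.

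Ank, the pyrophosphate transporter, had 2.77, 1.34 and 3.67 times the array median on static 1, 2 and 3. On microgravity 1, 2 and 3 it had 3.18, 2.26 and 2.81. The groups overlapped, and the value of static 2 lay below all the others. The groups did not differ beyond their spread, at 2.59 ± 1.18 and 2.75 ± 0.462 (SD, n = 3 each). The 95% interval of the ratio, microgravity over static, was 0.614 to 2.12 (log2 change 0.19, limma adjusted p = 0.942), so the arrays could not tell a change of that size from none. Without static 2 the log2 change was -0.23.

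Mepe, an acidic matrix protein of osteocytes and late osteoblasts, had 3.18, 1.90 and 2.11 times the array median on static 1, 2 and 3. On microgravity 1, 2 and 3 it had 1.93, 2.60 and 3.16. The 2 ranges nearly coincided, with means of 2.40 ± 0.688 and 2.56 ± 0.615 (SD, n = 3 each). The ratio of 1.07 had a 95% interval of 0.686 to 1.69 (log2 change 0.10, limma adjusted p = 0.967). That interval lies above the ratios of Alpl (0.211) and Pth1r (0.198).

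Phex and Ibsp were dim in both groups. Phex, the endopeptidase, had 0.236, 0.149 and 0.169 times the array median in static samples and 0.195, 0.239 and 0.161 in microgravity samples. Its groups overlapped (log2 change 0.11, 95% interval -0.47 to 0.69, limma adjusted p = 0.954). Ibsp, bone sialoprotein, had 0.278, 0.154 and 0.259 in static samples and 0.289, 0.171 and 0.201 in microgravity samples. Static 2 and microgravity 2 held the lowest Ibsp value of their groups (log2 change -0.05, 95% interval -0.79 to 0.69, limma adjusted p = 0.988). Signals this far under the median can be background, since no detection call was used, so a change of either transcript may not have been visible.

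Dmp1, which binds mineral and is made mostly by osteocytes, was at the floor. It had 0.0803, 0.146 and 0.0962 times the array median on static 1, 2 and 3, and 0.0522, 0.0438 and 0.0659 on microgravity 1, 2 and 3. The groups did not overlap, but 5 of 6 values lay under the floor of 0.1 at which values are set equal, and static 2 alone was above it. The log2 change was -0.18 (SE 0.17, limma adjusted p = 0.857) with the floor and -0.97 without one, a value that moved with this setting and did not pass under either. Groups of all genes did not overlap in the lower direction in 8.15% of cases, against 3 of the 7 followed here.

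**Figure D2:**
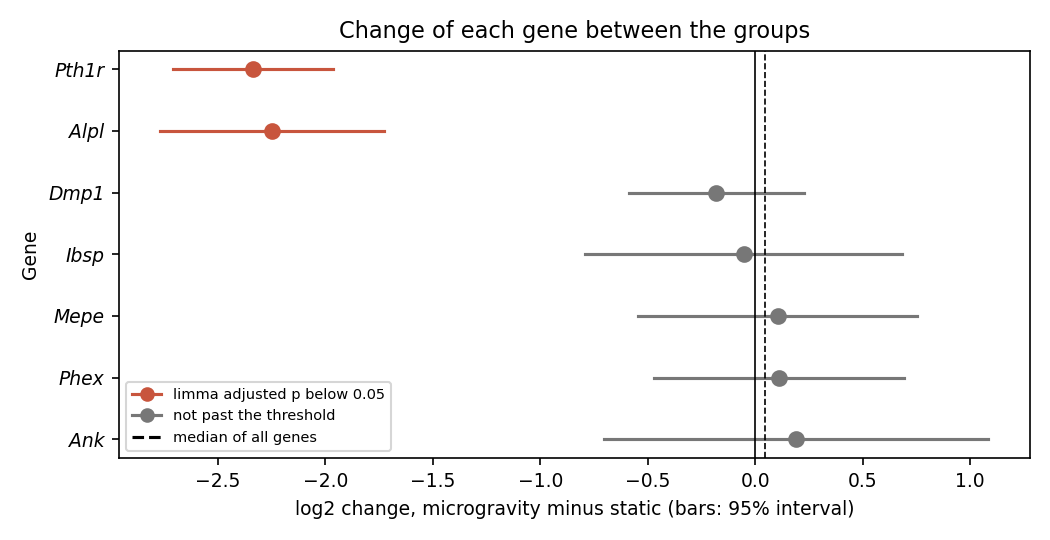
log2 change of each gene, microgravity minus static, with 95% intervals from limma on 3 arrays per group; the dashed line is the median of all genes tested. The intervals of Pth1r and Alpl end at -1.72 or lower, and the other 5 span 0.

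**Figure D3:**
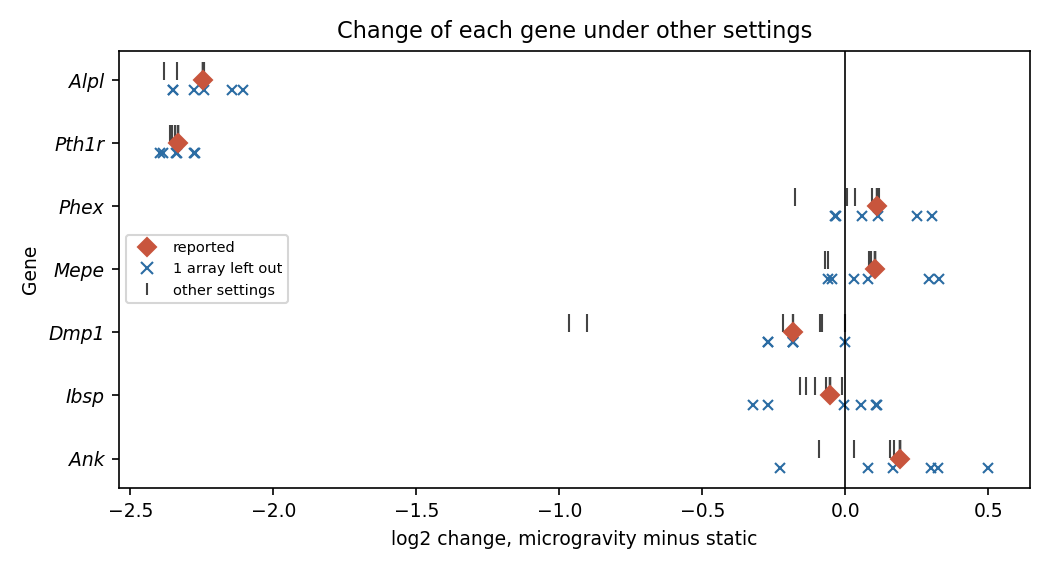
log2 change of each gene, microgravity minus static, in the reported fit (diamond), with 1 array left out (crosses) and under other settings (ticks). Alpl and Pth1r stay between -2.39 and -2.11, while Ank, Mepe, Phex and Ibsp fall on both sides of 0.

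Of 7 other bone mineral matrix proteins measured, 2 fell, 0 rose and 5 did not pass, with a median log2 change of -0.54 against 0.05 for all genes. The background for a fall was 0.198% of genes. An unadjusted limma p under 0.05 was reached by 4 of the 7, against 11.5% of all genes. The medians were -0.63 and -0.64 after quantile and cyclic loess normalization. The 2 that fell were osteomodulin (Omd), a proteoglycan of mineralised matrix, at 87.8, 79.8 and 62.8 times the array median on static and 11.5, 18.9 and 12.0 on microgravity arrays, and tetranectin (Clec3b), 5.34-fold lower. Both had entered the list with earlier results of these data known. The other 5 had values in both directions. The enamel matrix protein Ambn and the fetuin Fetub had log2 changes of 0.44 and 0.54, with every microgravity array above every static one (limma adjusted p = 0.421 and 0.482). Groups lay apart in that direction for 748 of all 8588 genes. Ambn was dim, at means of 0.160 and 0.216 times the array median in static and microgravity samples, a level that can be background. Sparc, the collagen- and calcium-binding osteonectin, Mgp, an inhibitor of mineralisation, and the fetuin Ahsg had log2 changes of -0.54, -0.95 and -0.25 (limma adjusted p = 0.457, 0.474 and 0.860). All but Ambn of these 5 were named after their values were seen.

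Genes of phosphate and pyrophosphate handling, a list wider than transport and release, gave 0 of 16 measured past the threshold by limma in either direction. At an unadjusted p under 0.05 there were 2, against 11.5% of all genes. The median log2 change was 0.02, close to that of all genes. The 2 were Slc20a1, a sodium-phosphate cotransporter of the plasma membrane, and Ppa1, a cytosolic pyrophosphatase. Slc20a1 had 3.76, 5.91 and 5.68 times the array median on static and 8.38, 9.39 and 7.74 on microgravity arrays. Its groups did not overlap, but it did not pass (log2 change 0.76, SE 0.21, limma adjusted p = 0.222). Ppa1 had 4.31 ± 1.25 and 6.92 ± 0.652 (SD, n = 3 each, limma adjusted p = 0.332). Abcc6, the transporter with the next smallest p, was at 0.0954 and 0.128, near the floor. Of 16 measured genes of other alkaline phosphatases, zinc loading of such enzymes and GPI anchoring, which ties Alpl to the membrane, 0 passed by limma and 2 had an unadjusted p under 0.05. Those were Pgap1 and Pigp, at log2 changes of -0.97 and -0.47 (limma adjusted p = 0.220 and 0.378). Pign, with the next smallest p, had a log2 change of 0.74 with groups that overlapped and no value on microgravity 2 (limma adjusted p = 0.604).

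The M13 family of membrane endopeptidases, to which Phex belongs, had 0 of 5 other measured members past the threshold by limma. At an unadjusted p under 0.05 there were 2, against 11.5% of all genes. Mme, neprilysin, had 3.44, 6.09 and 2.79 times the array median on static arrays and 0.959, 1.30 and 0.753 on microgravity arrays. Its groups did not overlap, but it did not pass (log2 change -1.98, SE 0.35, limma adjusted p = 0.0915). Ece2 had a log2 change of 0.59 (limma adjusted p = 0.453), and Ecel1 was at the floor on 5 of 6 arrays.

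Of 49 measured genes of PTH receptor signal transduction (G proteins, adenylyl cyclases, protein kinase A, phosphodiesterases and receptor kinases), 0 were called by limma. At an unadjusted p under 0.05 there were 4, against 11.5% of all genes. Of the 49, 26 had higher and 23 lower values, with a median of 0.02 that became -0.02 with quantile normalization. The smallest p-values belonged to Adcy7 and Adcy8, adenylyl cyclases, and Atf1, a cyclic AMP response factor, with log2 changes of 0.93, 0.64 and 0.69 (limma adjusted p = 0.189, 0.372 and 0.374). Adcy8 was dim, at means of 0.137 and 0.213 times the array median in static and microgravity samples. The remaining gene of the 4, the G protein gene Gnai2, was lower, with groups that did not overlap (log2 change -0.48, limma adjusted p = 0.401). Gnas, which encodes the stimulatory G protein that the receptor uses and was picked out after its values were seen, had 55.4 ± 10.8 and 45.3 ± 9.08 times the array median (SD, n = 3 each, limma adjusted p = 0.851). Its groups overlapped.

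Among 32 measured PTH-responsive genes, 1 rose, 0 fell and 31 did not pass, with a median log2 change of 0.06. The background for a rise was 0.0815% of genes. The 1 was the kinase gene Sgk1, at 3.55, 3.17 and 3.58 times the array median on static and 7.55, 7.35 and 7.44 on microgravity arrays. Cited1, a transcriptional coregulator, had a log2 change of 0.83 (limma adjusted p = 0.173), and the chemokine Ccl2 one of -0.41 (limma adjusted p = 0.445). Cited1 was dim, at means of 0.178 and 0.316 times the array median in static and microgravity samples. The list is drawn from general knowledge of the hormone and says nothing about whether hormone was present.

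Of 7 measured class B peptide hormone receptors and their partner proteins other than Pth1r, 0 passed by limma. At an unadjusted p under 0.05 (reached by 11.5% of all genes) there were 2. These were Ramp2 and Ramp1, receptor activity-modifying proteins that partner receptors of this class. Ramp2 had 2.15, 1.96 and 1.96 times the array median on static arrays and 0.941, 0.986 and 1.11 on microgravity arrays, a 2.00-fold lower signal that did not pass (limma adjusted p = 0.0915). Ramp1 had 0.837, 0.670 and 0.711 on static arrays and 0.291, 0.261 and 0.375 on microgravity arrays, a ratio of 0.415 (limma adjusted p = 0.0985). The groups of both genes did not overlap. Calcrl, the receptor that pairs with them for adrenomedullin and CGRP, did not pass, with a log2 change of 0.48 (limma adjusted p = 0.747).

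Transcription factors of osteoblasts gave 0 of 19 past the threshold by limma. At an unadjusted p under 0.05, which 11.5% of all genes reached, there was 1. That was Hey1, a dim Notch target with a log2 change of -1.01 (limma adjusted p = 0.233). Twist1 and Msx2 had log2 changes of -0.35 and -0.51 (limma adjusted p = 0.607 and 0.619). Runx2 and Sp7, the main osteoblast regulators, were not analysed here. Of 10 measured osteocyte genes, among them Dmp1, Phex and Mepe, 0 passed by limma and 1 had an unadjusted p under 0.05, Irx5 (log2 change -0.47, limma adjusted p = 0.421). Hspg2, the matrix proteoglycan perlecan, had a log2 change of -0.33, with groups that overlapped (limma adjusted p = 0.856).

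**Figure D4:**
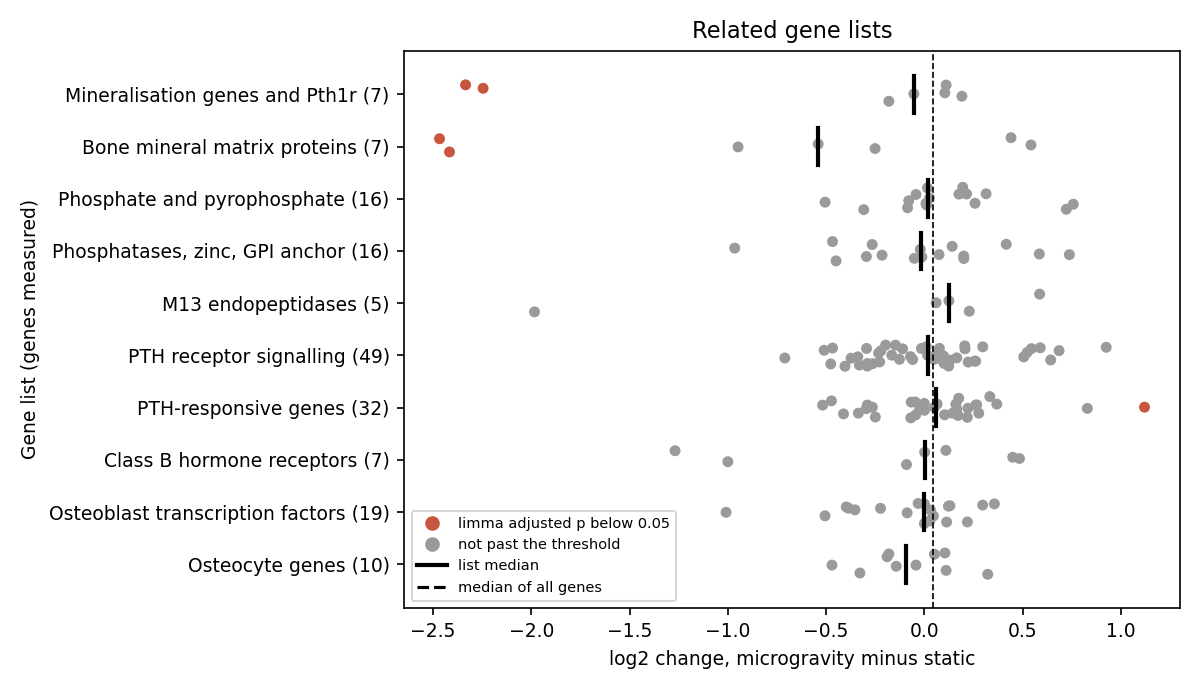
log2 change, microgravity minus static, of every measured gene in the lists (points), with the list median (black tick) and the median of all genes (dashed line); the number of genes is in brackets. Points past the threshold are 2 among the mineralisation genes, 2 bone mineral matrix proteins and 1 PTH-responsive gene.

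Genes whose values across the 6 arrays followed Pth1r and Alpl most closely were ranked by Pearson correlation over 4647 other genes above the array median in a group. The values are descriptions: the points share arrays, and any gene that differs between the groups scores high. For Pth1r these were Tmem9, Ptgfr, Ramp2, Bace2, Actn3 and S100b, with r from 0.993 to 0.996 over 6 arrays. Ramp2 is the receptor partner described above, Ptgfr is the prostaglandin F receptor, and Bace2 is a membrane aspartic protease. Ptgfr had 1.84 ± 0.0805 times the array median in static and 0.949 ± 0.00318 in microgravity samples (SD, n = 3 each, limma adjusted p = 0.0915). For Alpl they were Sfrp2, Cirbp, Dcn, Tex9, Bscl2 and P3h3, with r from 0.989 to 0.997. Sfrp2 is a secreted Wnt modulator, Dcn the matrix proteoglycan decorin, Cirbp a cold-inducible RNA-binding protein and P3h3 a collagen prolyl hydroxylase. Cirbp had 5.62 ± 0.300 and 3.26 ± 0.273 (SD, n = 3 each, limma adjusted p = 0.0915), and P3h3 7.12 ± 0.297 and 4.70 ± 0.316 (SD, n = 3 each, limma adjusted p = 0.133). No gene was in both sets.

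**Figure D5:**
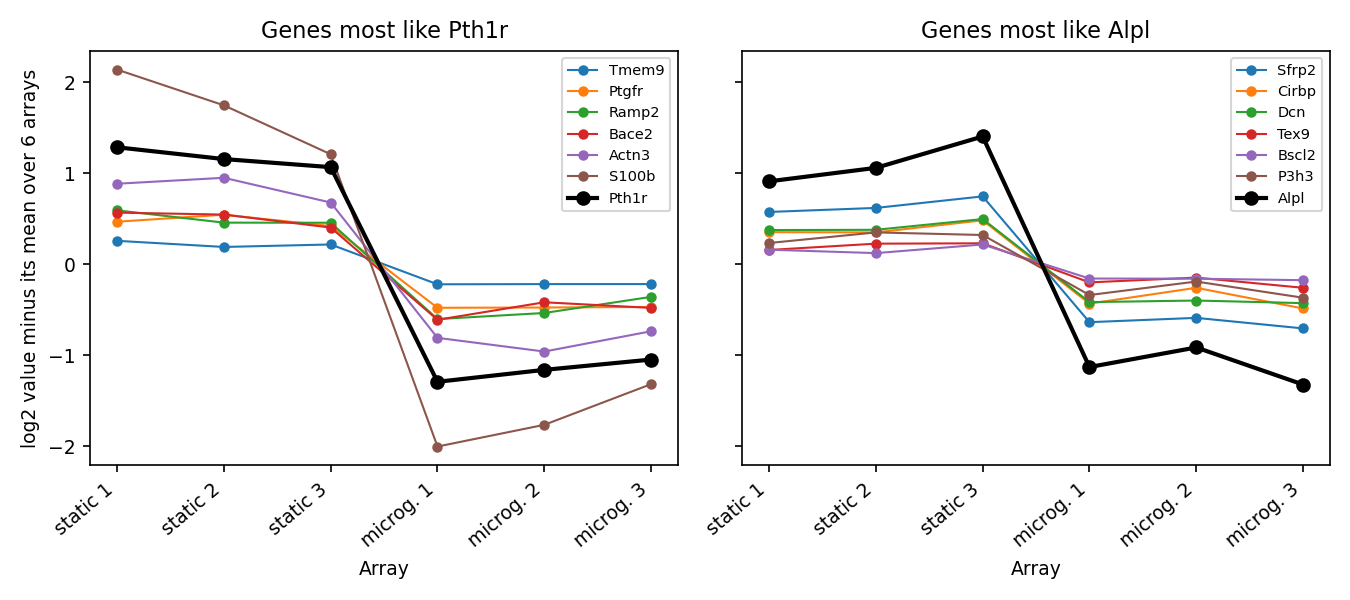
log2 value on each array minus the gene's mean over the 6 arrays, for Pth1r and for Alpl (black) and the 6 genes most like each (colours). All lines step down from the static to the microgravity arrays, with Pth1r falling by 2.34 and Alpl by 2.25 on the log2 scale.

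The label of osteoblast-lineage cells was set against marker lists. Of 16 measured osteoblast markers, 11 were above the array median in a group, and their summed level was 469 to 600 times the array median in static and 272 to 344 in microgravity samples. Of these markers 3 fell, Pth1r, Alpl and Omd, against 0.198% of all genes called lower. The other 13 did not pass, and the list had a median log2 change of -0.46. Pth1r, Alpl and Phex are among the 7 genes followed here, and Omd was counted among the matrix proteins above. The 3 calls therefore repeat results already given, and the summed level and the next counts include these genes too. Of the 16 markers, 14 had lower values, against 3731 of all 8588 genes. In 8 of them the groups did not overlap in the lower direction (8.15% of all genes). An unadjusted limma p under 0.05 was reached by 6 (11.5% of all genes). Among markers of other cells, 3 of 8 adipocyte, 1 of 8 chondrocyte, 1 of 14 skeletal muscle, 4 of 11 macrophage, osteoclast and blood, and 0 of 9 endothelial and epithelial genes lay above the median. The summed adipocyte markers ran from 43.6 to 51.4 in static and from 36.5 to 42.6 in microgravity samples, with Lpl and Fabp4 the bright ones and the defining Adipoq near the floor. The summed muscle markers were 4.33 to 4.85 and 3.13 to 3.78. Actn3, the 1 called marker of another cell type, had 1.89 ± 0.181 and 0.592 ± 0.0460 (SD, n = 3 each, limma adjusted p = 0.0394), while Myog and Actn2 were at the floor on 5 of 6 arrays. Of these 2 sums, the muscle one differed mainly through Actn3 and the adipocyte one mainly through Lpl, at 16.9 ± 0.804 and 9.89 ± 1.56 (SD, n = 3 each, limma adjusted p = 0.109), while the median log2 changes of the muscle and adipocyte lists were -0.0041 and 0.05. The other 3 sums overlapped between the groups, at 16.2 to 21.1 and 13.5 to 20.9 for macrophage, osteoclast and blood, 3.51 to 4.42 and 3.55 to 3.78 for chondrocyte, and 1.11 to 1.36 and 1.12 to 1.58 for endothelial and epithelial markers. The part of these cells in the results for Alpl and Pth1r was not tested.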

How the data were processed

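The files hold 1 table of intensity values on a linear scale, 10500 probes by 6 arrays, deposited by the authors. Their scanner, scaling and background correction are not stated here. Column medians were 0.908 to 0.927, so the arrays were taken as already scaled, which was not shown. Values were expressed relative to the median of their array, raised to a floor of 0.1 and put on a log2 scale, so the change of a dim gene is understated. Probes at the floor on all arrays, or lacking 2 values in either group, were dropped (354), leaving 10146.

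Symbols were taken from the platform annotation held by GEO, with 8983 probes having 1 symbol and 1517 none or several. A gene was represented by its brightest probe. Groups were compared with limma 3.58.1 in R 4.3.3 (lmFit, eBayes with intensity trend, 2-sided, Benjamini-Hochberg over all probes), which was tested on simulated data. The precision is limited by 3 arrays per group. Promoter sequences came from RefSeq (GRCm38.p6), where all 7 genes matched. Plots used Python 3.11.15.

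Members, lists and tests were chosen with earlier results of these data known. The genes named are the members, each list's called genes and its 3 smallest p-values, the 6 genes most like Pth1r and like Alpl, and called cell type markers. Others named were chosen after their values were seen. Alternatives were other normalizations, floors, filters, variance models, the replicate number as a block, the mean of a gene's probes, and arrays left out.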

Additional observations from a re-analysis of the deposited data

How the results depend on the processing

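Alpl and Pth1r passed in 11 of 19 alternatives and were lower in all 19. With the replicate number as a block, 0 probes, 0 genes, 0 members and 0 genes of the related lists passed by limma, with 2 members at an unadjusted p under 0.05, and Alpl and Pth1r had log2 changes of -2.25 and -2.34 (limma adjusted p = 0.245 for both). The labels do not say whether the numbers pair the samples. Deviations of same-numbered arrays correlated at -0.21, 0.45 and -0.18, static 1 with microgravity 3 at 0.66 and static 3 with microgravity 1 at 0.38. These few correlations cannot decide whether samples were paired or shared a batch. With 1 array left out these 4 counts were 0 in each case by limma, with 760 to 1081 probes and 2 members at an unadjusted p under 0.05, and the log2 changes were -2.35 to -2.11 for Alpl and -2.39 to -2.27 for Pth1r. Without static 2 and microgravity 2, chosen after seeing the data, the 4 counts were also 0, with Pth1r at -2.34 and Alpl at -2.38.

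The 28 probes and 24 genes became 54 and 48 with quantile and 57 and 48 with cyclic loess normalization, 53 and 47 with the floor at 0.05, 59 and 52 with no floor, 59 and 53 without the dimmest 25% of probes, and 115 and 101 with array weights. Without the intensity trend they were 19 and 16. List genes went from 3 to 6 with array weights and to 2 without the trend or with the floor at 0.5. Signs turned only for members that did not pass. With 1 array left out Ank ranged from -0.23 to 0.50, Mepe from -0.061 to 0.33, Phex from -0.034 to 0.30 and Ibsp from -0.32 to 0.11. Without both arrays numbered 2 Ank was -0.093, Mepe -0.070 and Phex -0.18, and with array weights Mepe was -0.061. The cause was not tested. Phex in 2 alternatives, Dmp1 in 3 and Ibsp in 1 fell to the floor or under the filter on dim probes and had no value.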
